A study of Mus musculus with 10 samples.

Results

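The pyruvate dehydrogenase complex and the enzymes that switch it on and off were followed in the brown fat, which burns fuel to make heat, of 5 mice labelled SIRT3 KO and 5 wild-type (WT) mice. SIRT3 is a mitochondrial deacetylase. The members were all probe sets that the platform annotation gives to 1 of 10 genes alone, which made 10 of 18193 genes and 18 of the 34945 probe sets that carry a single gene. They are, with their NCBI gene IDs, the kinases Pdk1 (228026), Pdk2 (18604), Pdk3 (236900) and Pdk4 (27273), the phosphatases Pdp1 (381511) and Pdp2 (382051), and the core proteins Pdha1 (18597), Pdhb (68263), Dlat (235339) and Pdhx (27402). 5 of these genes had 1 probe set and 5 had several. Each sample was 1 Affymetrix array of total RNA of the tissue. KO and WT mice were untreated littermates, about 1 year old, on the 129 background. The labels do not say which exons the knockout removes or in which cells.

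Pyruvate dehydrogenase stands between glycolysis and the mitochondrial tricarboxylic acid cycle. Its E1 enzyme, built of Pdha1 and Pdhb, decarboxylates pyruvate, its E2 enzyme Dlat passes the acetyl group to coenzyme A through a lipoyl arm, and Pdhx anchors the E3 enzyme to the E2 core. The kinases switch the complex off by phosphorylating E1 alpha, and the phosphatases switch it on again. Brown fat burns fatty acids and takes up glucose, and the kinase and phosphatase activities set how much pyruvate is oxidised or passed on to fatty acid synthesis.

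Values are log2 signals as deposited, made by RMA, a method that puts arrays on a common scale and gives 1 value per probe set. Array medians lay between 5.58 and 5.61, and pairwise correlations between arrays between 0.988 and 0.997. Ucp1, the uncoupling protein that defines brown adipocytes, gave 13.96 to 14.19 in KO arrays and 14.09 to 14.28 in WT arrays. Sirt3 itself was not lower in arrays labelled KO (10.22 to 10.40 in KO and 10.03 to 10.28 in WT, exact permutation p = 0.016 for a difference of 0.19), and whether its probe set lies in the deleted part is not known here, so directions refer to the labels. Transcripts of skeletal muscle differed widely between arrays. The mean signal of 19 muscle genes ran from 5.32 to 10.93 in KO arrays and from 7.42 to 11.56 in WT arrays, with KO 3 and KO 1 lowest. RMA gives no value of 0: the myosin gene Myh1 read 2.85 in KO 3 and 3.35 in KO 1, against 11.46 in KO 4.

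The promoter windows of 4 members are shown here, chosen by the signals of their brightest probe sets in WT 4 and WT 5. These were the lowest of all arrays for Dlat and Pdhb and the highest for Pdk2 and Pdp2. For Pdk2 the margin was small, at 11.09 in both against 11.06 in WT 1. Each window runs from 250 bases before to 50 after an annotated start. The windows were taken from RefSeq with build GRCm38.p6, in which 9 of the 10 members were found. Dlat lies at chr9:50659731-50660030 and Pdhb at chr14:8172943-8173242, both on the minus strand. Pdk2 lies at chr11:95041322-95041621 on the minus strand, the first of 2 listed starts, and Pdp2 at chr8:104591222-104591521 on the plus strand. Capitals mark letters found on either strand, of the E-box CACGTG, the HIF-bound core ACGTG, the element CCAAT, the Sp1-type element GGGCGG, the nuclear receptor element AGGTCA and the element TATAAA.
Dlat: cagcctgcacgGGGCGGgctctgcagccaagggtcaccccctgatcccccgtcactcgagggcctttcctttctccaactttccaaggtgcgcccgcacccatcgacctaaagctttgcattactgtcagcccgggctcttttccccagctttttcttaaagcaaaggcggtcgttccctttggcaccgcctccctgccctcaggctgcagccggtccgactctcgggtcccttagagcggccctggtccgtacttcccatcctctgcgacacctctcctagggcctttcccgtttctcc
Pdhb: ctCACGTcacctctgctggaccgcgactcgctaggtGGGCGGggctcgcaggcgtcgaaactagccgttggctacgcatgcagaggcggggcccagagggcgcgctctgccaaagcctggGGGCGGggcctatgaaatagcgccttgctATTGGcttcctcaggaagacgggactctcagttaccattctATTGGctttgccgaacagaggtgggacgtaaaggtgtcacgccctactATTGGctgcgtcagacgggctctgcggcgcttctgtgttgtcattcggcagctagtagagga
Pdk2: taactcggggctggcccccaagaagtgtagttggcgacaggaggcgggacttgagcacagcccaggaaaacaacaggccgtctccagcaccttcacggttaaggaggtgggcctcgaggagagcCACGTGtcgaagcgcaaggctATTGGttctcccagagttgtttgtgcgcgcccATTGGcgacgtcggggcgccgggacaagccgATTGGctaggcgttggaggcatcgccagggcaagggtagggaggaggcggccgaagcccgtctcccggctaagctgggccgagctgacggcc
Pdp2: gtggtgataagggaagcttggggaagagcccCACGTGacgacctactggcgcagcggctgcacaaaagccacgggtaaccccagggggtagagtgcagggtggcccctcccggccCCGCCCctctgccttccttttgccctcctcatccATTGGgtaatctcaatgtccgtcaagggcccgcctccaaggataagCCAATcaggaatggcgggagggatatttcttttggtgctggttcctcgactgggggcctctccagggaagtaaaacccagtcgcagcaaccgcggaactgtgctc

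The windows shown for Pdk2 and Pdp2 each held 1 CACGTG, and 7.15% of all 32851 windows held one. Each CACGTG also counts as ACGTG on both strands. The window of Pdhb held 1 ACGTG outside an E-box, that of Dlat held none, and 19.6% of all windows held ACGTG. The letters CCAAT were present 3 times in Pdhb, 3 times in Pdk2 and 2 times in Pdp2 and were not found in Dlat, against 37.4% of windows with at least 1. GGGCGG was present 2 times in Pdhb, 1 time in Dlat and 1 time in Pdp2 and was not found in Pdk2 (35.7% of windows). None of the 4 held AGGTCA (16.3% of windows) or TATAAA (13.6%). The window of the other Pdk2 start, chr11:95040826-95041125, held none of these motifs. These are letter matches in the windows and say nothing of binding.

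Between KO and WT arrays, no member probe set passed the test. By limma, 0 of 18 were under 0.05 after adjustment over all probe sets, with adjusted p-values of 0.885 to 0.981, and 0% of all probe sets passed. At an unadjusted p under 0.05 there were 2 of 18 member probe sets, 1 of Pdk2 and 1 of Dlat, where 5.41% of all 34945 probe sets lay under it. The KO and WT arrays overlapped in all 18, while 0.693% of all probe sets had groups that did not overlap. Of the 18 differences 9 were above 0 and 9 below, with a median of 0.0061 log2 units, against -0.0059 over all probe sets. The 95% confidence intervals reached from 0.097 (Pdha1) to 0.52 log2 units (Pdp1) to either side of the difference. In tissue RNA, fewer cells of a type and less RNA per cell cannot be told apart.

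**Figure D1:**
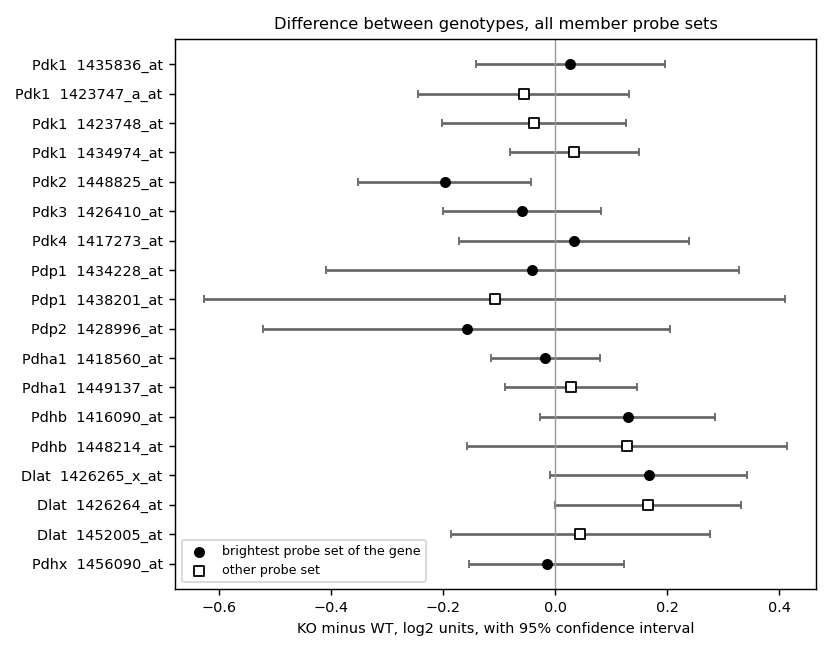
KO minus WT difference in log2 units for the 18 member probe sets, with 95% confidence intervals from limma (5 KO and 5 WT arrays). Filled circles are the probe set with the highest mean signal of each gene and open squares the others. The interval of Pdk2 runs from -0.35 to -0.043, and the intervals of the Pdp1 sets are the widest.

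Pdk2, the kinase that is widespread in tissues, had the lowest difference of the kinases. Its probe set read 10.93, 10.84, 10.87, 10.70 and 10.74 in KO arrays 1 to 5, against 11.06, 10.81, 11.01, 11.09 and 11.09 in WT arrays 1 to 5. All 5 KO arrays lay below the WT mean, and the groups overlapped only through WT 2. The means were 10.82 ± 0.095 in KO and 11.01 ± 0.12 in WT (SD, n = 5 each). The difference was -0.20 ± 0.070 log2 units (SE; 95% confidence interval -0.35 to -0.043), and the adjusted p of limma was 0.885. It kept its sign in all 18 alternatives run for it, between -0.25 (without WT 2) and -0.15 (without WT 4 and WT 5).

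Pdk4, the kinase that fasting and fatty acids induce in muscle and fat, varied more between animals than between genotypes. Its probe set read 13.15, 13.28, 13.15, 13.36 and 13.62 in KO arrays 1 to 5, against 13.29, 13.39, 13.19, 13.40 and 13.14 in WT arrays 1 to 5. KO 5 was the highest array and WT 5 the lowest, with KO 1 and KO 3 close to it. The difference was 0.034 ± 0.094 (95% confidence interval -0.17 to 0.24), and it turned to -0.043 without KO 5. KO 1, KO 3 and WT 5 were also the 3 arrays lowest in the muscle genes. Without these 3 the difference was 0.11, and with the muscle mean as a covariate it was 0.098, with an adjusted p of limma of 0.95 and 0.78.

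Pdk1, the kinase that the hypoxia-inducible factor HIF1 induces, was read by 4 probe sets, and the title of the study names HIF1a. The brightest set gave 9.70 to 9.96 in KO arrays and 9.66 to 9.93 in WT arrays, a difference of 0.027 ± 0.077 (95% confidence interval -0.14 to 0.20). Differences of the next sets were -0.056 ± 0.086 and -0.038 ± 0.075. The remaining set stayed at a mean of 3.07, below the array medians. Over the 10 arrays the brightest set had a correlation of 0.43 and 0.42 with the next ones, which had 0.75 with each other. Pdk3, which is also a HIF1 target in cultured cells, had 1 probe set at 6.05 to 6.10 in KO arrays apart from KO 5 at 5.80, and at 6.04 to 6.11 in WT arrays. Its difference was -0.060 ± 0.064, and without KO 5 it was -0.0039.

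Signals of different probe sets depend on their probes as well as on transcript amount, so the isoforms were compared by how their within-array differences shifted. Mean signals over all arrays were 6.05 for Pdk3, 9.84 for Pdk1, 10.91 for Pdk2 and 13.30 for Pdk4, and no order of amounts is drawn from them. Pdk4 minus Pdk2 averaged 2.50 ± 0.28 in KO and 2.27 ± 0.20 in WT (SD, n = 5 each). That difference of 0.23 ± 0.15 log2 units (SE) had an exact permutation p of 0.17 and 0.39 after adjustment over 7 pairs. Pdk2 minus Pdk1 averaged 0.96 ± 0.15 in KO and 1.19 ± 0.22 in WT, a difference of -0.22 ± 0.12 (exact permutation p = 0.11, adjusted 0.39, n = 5 each), and -0.076 without WT 4 and WT 5. Without KO 5, Pdk4 minus Pdk2 differed by 0.13. None of the 7 pairs of isoforms passed. Pdk3 minus Pdk2 differed by 0.14 ± 0.077, Pdk4 minus Pdk3 by 0.094 ± 0.15, Pdk3 minus Pdk1 by -0.087 ± 0.10 and Pdk4 minus Pdk1 by 0.0069 ± 0.12.

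**Figure D2:**
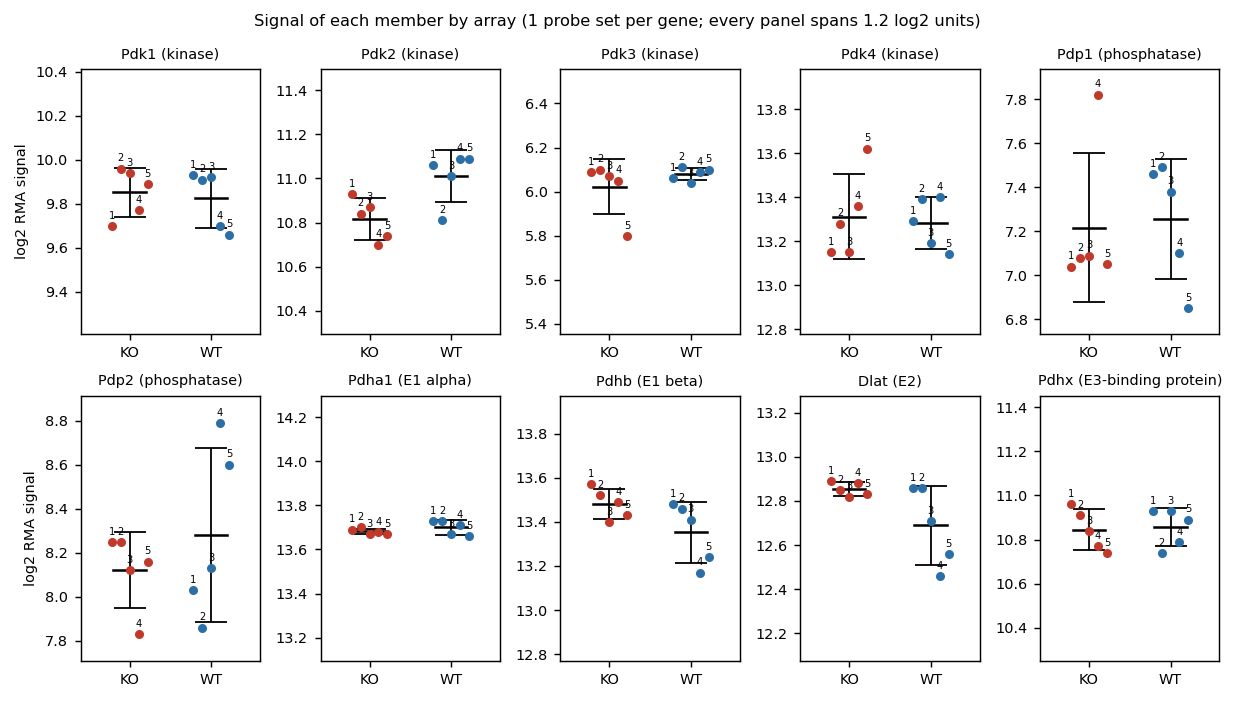
Log2 RMA signal of the brightest probe set of each member gene, 1 point per array with its replicate number, KO left and WT right. Lines and bars are the mean and SD of 5 arrays, and each panel spans 1.2 log2 units at its own level, so panels compare spread and not level. Pdha1 spans 0.069 log2 units over all arrays, while Pdp1 and Pdp2 span 0.98 and 0.96.

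The phosphatases varied most between arrays. Pdp2, the isoform known from insulin-responsive tissues such as fat and liver, read 8.25, 8.25, 8.12, 7.83 and 8.16 in KO arrays 1 to 5, against 8.03, 7.86, 8.13, 8.79 and 8.60 in WT arrays 1 to 5. WT 4 and WT 5 lay above all the other arrays, while WT 2 and KO 4 were the lowest. The difference was -0.16 ± 0.17 (95% confidence interval -0.52 to 0.21), and it turned to 0.12 without WT 4 and WT 5. The 5 genes most like Pdp2, by Pearson correlation over the 10 arrays among 10510 genes with a signal above the median, were Dnajc11 (0.97), Ganab (0.97), Smpd1 (0.96), Atp2a2 (0.96) and Gpat4 (0.96). For Pdk4 they were Foxj3 (0.94), Tmem140 (0.94), Gnl2 (0.93), 2900026A02Rik (0.92) and Csnk1a1 (0.91). These are the top of a search over many genes in few arrays and are given without a test.

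Pdp1, the calcium-stimulated phosphatase that is prominent in muscle, had 2 probe sets. The brighter one read 7.04, 7.08, 7.09, 7.82 and 7.05 in KO arrays 1 to 5, against 7.46, 7.49, 7.38, 7.10 and 6.85 in WT arrays 1 to 5. The dimmer one read 5.04, 5.88, 5.00, 6.22 and 5.03 in KO arrays, against 5.75, 5.68, 5.73, 5.36 and 5.20 in WT arrays. KO 4 was the highest array on both sets, which had a correlation of 0.80 with each other. On the dimmer set the 5 arrays with the highest muscle mean (KO 2, KO 4, WT 1, WT 2 and WT 3, at 10.91 to 11.56) were also the 5 highest for Pdp1. The mean of that set, 5.49, lies below the array medians. KO 2 did not follow on the brighter set. The differences were -0.040 ± 0.17 and -0.11 ± 0.24, and with the muscle mean as a covariate that of the brighter set turned to 0.087 (adjusted p of limma 0.90). Pdp1 minus Pdp2 averaged -0.91 ± 0.51 in KO and -1.02 ± 0.65 in WT (SD, n = 5 each; exact permutation p = 0.75, adjusted 0.87).

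**Figure D3:**
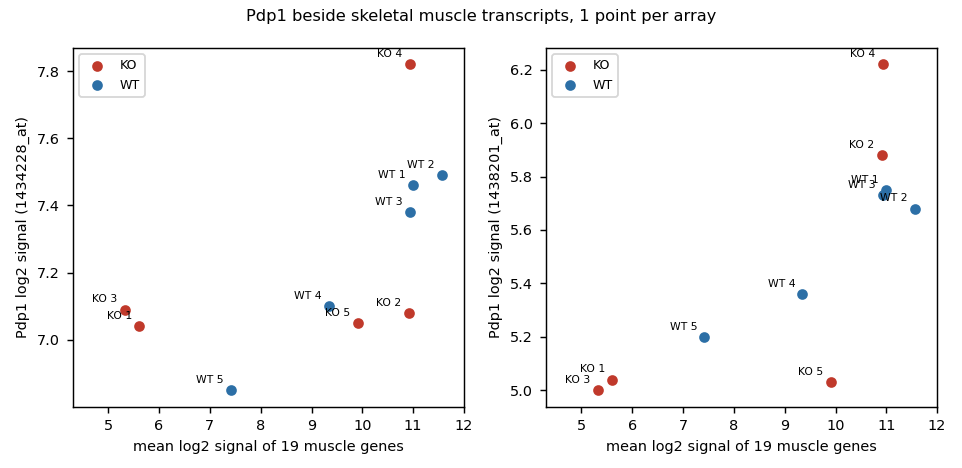
Log2 signal of the brighter (left) and dimmer (right) Pdp1 probe set against the mean log2 signal of 19 skeletal muscle genes, 1 point per array. On the right, the 5 arrays with a muscle mean of at least 10.91 lie between 5.68 and 6.22 for Pdp1, and the other arrays between 5.00 and 5.36.

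Among the core proteins, Pdha1, the E1 alpha subunit that the kinases phosphorylate, had the narrowest spread of signals on its brighter probe set, which lay between 13.67 and 13.70 in KO arrays and between 13.66 and 13.73 in WT arrays. The mean of that set ranks at percentile 99.9 of all probe sets, and whether signals are compressed at that level was not tested. Nor was it tested for the brightest sets of Pdhb (percentile 99.7), Pdk4 (99.7) and Dlat (99.4), which rank nearly as high. The other Pdha1 set spanned 0.19 log2 units over all arrays, against 0.069 for the brighter one. The difference was -0.018 ± 0.044 (95% confidence interval -0.11 to 0.079), and that of its other set 0.029 ± 0.054. Pdhx, the E3-binding protein, read 10.96, 10.91, 10.84, 10.77 and 10.74 in KO arrays 1 to 5, against 10.93, 10.74, 10.93, 10.79 and 10.89 in WT arrays 1 to 5. Its groups overlapped throughout, with a difference of -0.015 ± 0.063 that turned to 0.012 after another quantile normalization.

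Dlat, the E2 enzyme, and Pdhb, the E1 beta subunit, shared a pattern over arrays on their brightest probe sets. Dlat read 12.89, 12.85, 12.82, 12.88 and 12.83 in KO arrays 1 to 5, against 12.86, 12.86, 12.71, 12.46 and 12.56 in WT arrays 1 to 5. Pdhb read 13.57, 13.52, 13.40, 13.49 and 13.43 in KO arrays, against 13.48, 13.46, 13.41, 13.17 and 13.24 in WT arrays. On these sets WT 4 was the lowest array and WT 5 the next, and in each gene the 5 KO arrays were higher than the mean of WT. Dlat differed by 0.17 ± 0.080 (95% confidence interval -0.0084 to 0.34) and Pdhb by 0.13 ± 0.072 (-0.028 to 0.29), each with an adjusted p of limma of 0.885. Of the other Dlat sets, one differed by 0.17 ± 0.076 and the other by 0.045 ± 0.11. That last set read 11.56, 11.22, 11.05, 11.28 and 10.91 in KO arrays 1 to 5, against 11.29, 11.07, 11.16, 11.11 and 11.16 in WT arrays 1 to 5, and its lowest arrays were KO 5 and KO 3. The other Pdhb set differed by 0.13 ± 0.13. On the brightest sets, without WT 4 and WT 5 these differences were 0.045 and 0.031, and without WT 4 alone they were 0.11 and 0.083.

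Over the 10 arrays the correlation of Pdhb with Dlat was r = 0.96 (permutation p = 6e-05, 0.0027 adjusted over 45 pairs of members) and Spearman's rho was 0.90 (permutation p = 0.00073, adjusted 0.033). Without WT 4 and WT 5, the arrays farthest from the median of Pdhb, r was 0.71 (exact permutation p = 0.038, 8 arrays). With each value taken as its deviation from the mean of its genotype, r was 0.94. Of 18192 other genes, 11 correlated at least as strongly, in either direction, with Dlat, or 0.060%, and 7 with Pdhb, or 0.038%. Each count includes the partner itself. The probe sets did not all share the pattern. A second set of Dlat had r = 0.997 with the one used, while the remaining set had 0.27 with it and 0.47 with Pdhb. The second set of Pdhb, dimmer at 9.18 on average, had r = 0.67 with Dlat.

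No other pair of members passed after adjustment over the 45 pairs. Pdp2 with Dlat came next at r = -0.86 (permutation p = 0.0043, adjusted 0.097) and rho = -0.55 (permutation p = 0.10, adjusted 0.59). Without WT 4 and WT 5 its r was -0.20, so it rests on those arrays. Pdp2 with Pdhb had r = -0.76 (permutation p = 0.015, adjusted 0.13) and rho = -0.35 (permutation p = 0.33, adjusted 0.77). Its r turned to 0.20 without WT 4 and WT 5. Pdp1 with Pdp2 had r = -0.74 (permutation p = 0.015, adjusted 0.13) and rho = -0.78 (permutation p = 0.010, adjusted 0.23), and r was -0.56 without KO 4 and WT 2. Pdk2 with Dlat had r = -0.70 (permutation p = 0.021, adjusted 0.15) and rho = -0.60 (permutation p = 0.074, adjusted 0.59), and r was -0.59 without KO 4 and WT 5. That check kept WT 4, so whether this pair rests on WT 4 and WT 5 was not tested. Pdk4 with Pdhx had r = -0.75 (permutation p = 0.0098, adjusted 0.13) and rho = -0.70 (permutation p = 0.031, adjusted 0.46), and r was -0.71 without KO 5 and WT 5. WT 4 and WT 5 combined the lowest signals of Dlat and Pdhb with the highest of Pdp2 and of Pdk2. For Pdk2 their 11.09 was close to WT 1 at 11.06. WT 4 and WT 5 also had the highest mean of 10 brown adipocyte markers, 12.32 and 12.41. That mean was 11.85 to 12.09 in KO arrays and 11.86 to 12.18 in the other WT arrays. The markers did not share this order. Dio2, the deiodinase that activates thyroid hormone, read 11.20 and 11.32 there, against 9.33 to 9.95 in KO arrays and 8.65 to 9.74 in the other WT arrays. Prdm16 (7.88 and 7.89) and Fabp4 (14.51 and 14.52) lay inside the range of the other arrays, and Cidea (14.20 and 14.15) was lowest in WT 5. The 4 white adipocyte markers went different ways. The adipokine gene Lep was lowest in these arrays, 6.34 and 5.75, against 8.01 to 10.23 in KO arrays and 7.92 to 9.86 in the other WT arrays. Retn was highest in them, 9.91 and 9.21, against 7.65 to 8.83 in KO arrays and 7.69 to 8.74 in the other WT arrays. Nnat read 7.50 and 6.67 and Agt 6.31 and 6.02 in them. The part of adipocyte state or tissue make-up in these values was not tested.

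**Figure D4:**
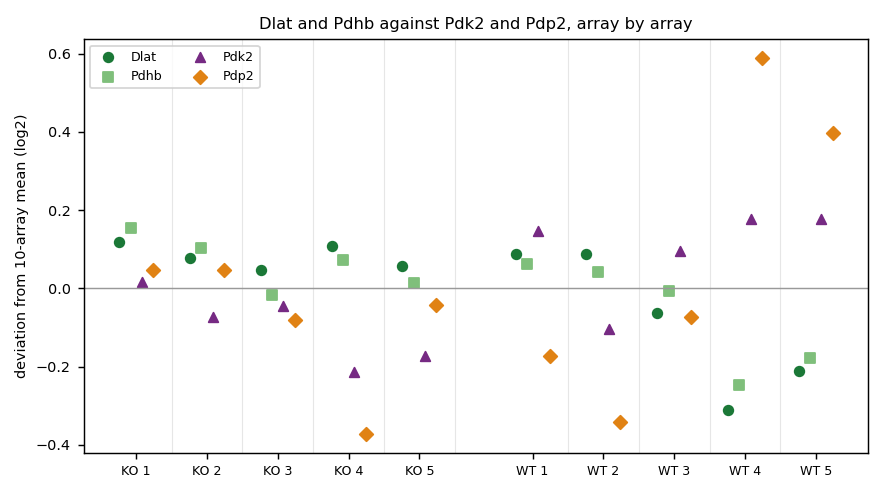
Deviation of each array from the mean of all 10 arrays, in log2 units, for Dlat, Pdhb, Pdk2 and Pdp2 (1 symbol per array, KO left and WT right). WT 4 and WT 5 are the lowest for Dlat and Pdhb and the highest for Pdp2, while the 5 KO arrays stay within 0.12 of the mean for Dlat.

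In 6 lists of genes around the complex 0 members were called, where 0% of all probe sets passed. The lists use 1 probe set per gene, and over all 18193 genes 43.9% were higher in KO with a median of -0.013. Of 14 measured genes of pyruvate supply and use, 6 were higher and 8 lower, with a median of -0.012. Pdpr, the regulatory subunit of the phosphatase, differed by -0.16 ± 0.066 and read 10.28 and 10.22 in WT 4 and WT 5, the highest of all arrays. Me1, the malic enzyme that makes pyruvate and NADPH for fatty acid synthesis, differed by 0.51 ± 0.24 and read 11.71 and 11.84 in WT 4 and WT 5, the lowest of all arrays. Ldhb, a lactate dehydrogenase, differed by -0.10 ± 0.071. Pyruvate carboxylase, Pcx, also supplies control probe sets at both ends of its transcript. Their 3' minus 5' signal was 2.77 to 2.95 in KO arrays and 2.96 to 3.44 in WT arrays, a difference of -0.37 (exact permutation p = 0.0079, and no smaller value is possible here). The groups did not overlap in this measure, which RNA quality and labelling can move, so these and genotype cannot be told apart in the members' values.

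Of the 8 genes of the sister complexes, which oxidise other 2-oxoacids with the same chemistry, 1 was higher and 7 lower, with a median of -0.046. Dhtkd1, the E1 enzyme for 2-oxoadipate, differed by -0.38 ± 0.16, Dbt, the E2 enzyme for branched-chain acids, by -0.24 ± 0.13, and Ppm1k, the phosphatase of that complex, by -0.17 ± 0.12. Lipoate assembly, which builds the cofactor of Dlat, gave 5 higher and 5 lower of 10, with a median of -0.011. Mecr, of mitochondrial fatty acid synthesis, differed by 0.13 ± 0.079, and the iron-sulfur proteins Iba57 and Nfu1 by -0.20 ± 0.13 and -0.096 ± 0.064.

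Fasting and PPAR targets, many of which are induced together with Pdk4, gave 5 higher and 4 lower of 9, with a median of 0.0060. Angptl4, an inhibitor of lipoprotein lipase, differed by 0.52 ± 0.27 and was lowest in WT 5 at 10.13. Fgf21, a hormone, differed by 0.20 ± 0.099, and Slc25a20, the carnitine carrier, by -0.12 ± 0.082. The Fgf21 set read 5.43 to 5.99 over all arrays, close to the array medians of 5.58 to 5.61. Of 12 known regulators of the kinase genes 4 were higher and 8 lower, with a median of -0.072. The nuclear receptor Ppard differed by -0.17 ± 0.084, the insulin receptor Insr by -0.15 ± 0.089 and the transcription factor Foxo3 by -0.15 ± 0.10. All 3 were highest in WT 4. Of 12 HIF targets 3 were higher and 9 lower, with a median of -0.030. The glycolytic enzyme Pgk1 differed by 0.083 ± 0.052, the mitophagy receptor Bnip3 by -0.21 ± 0.16 and the oxygen sensor Egln1 by -0.073 ± 0.056. The other marker lists had medians of -0.065 (10 brown adipocyte genes), -0.062 (4 white adipocyte genes), -0.12 (7 macrophage genes), 0.14 (6 endothelial genes) and 0.067 (2 erythroid genes), against -1.60 for the 19 muscle genes. Each of these lists had 0 members called, where 0% of all probe sets passed. Of the 2 erythroid genes, Hba-a1 read 3.79 to 4.04 over all arrays, below the array medians of 5.58 to 5.61.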

How the data were processed

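Deposited values are log2 signals per probe set; the authors made them with RMA, per the submitters' processing notes. Nothing further on software, settings or build was found in the labels. RMA makes arrays alike by construction and gives no detection call. Groups and replicate numbers were read from titles, and arrays were taken as separate mice, so p-values measure the spread between these arrays, which may be technical; their number limits the precision.

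Of 45101 probe sets, 64 controls, 932 with several genes and 9160 with none were left out. Symbols were updated by gene ID through the RefSeq table of GRCm38.p6 (34741 of 34945 matched). KO minus WT was fitted with limma 3.58.1 (lmFit, eBayes) in R 4.3.3 over all 34945 probe sets, two-sided, with Benjamini-Hochberg adjustment, called at 0.05. Errors of differences are standard errors of that fit, except for pairs of isoforms, where they are pooled standard errors. For each gene, its brightest probe set on average was used. Exact permutation used the 252 ways of choosing 5 of 10 arrays; correlations used 100000 permutations. The fit was tested on simulated data with independent noise and with changes larger than the differences of the members. That test does not cover differences as small as theirs or variation shared between probe sets.

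Named genes are the members, up to 3 genes of smallest unadjusted p per list, Sirt3, Pcx and the 5 most like Pdk4 and Pdp2. Members, lists and arrays left out together were chosen with earlier results of these data known; the correlation alternatives, and the marker genes given as examples, were chosen after values were seen. Some genes of the lists are not analysed here.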

Additional observations from a re-analysis of the deposited data

Results flagged for a closer look

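Single arrays stood apart from the other 4 of their group in 7 of the 50 groups of 5 values looked at, where chance flags about 1 group in 20. These groups are not independent, because the isoform differences reuse signals of the member probe sets. The share over all probe sets is not given here, so no excess is drawn from this count. KO 4 was far above the other KO arrays for the brighter Pdp1 probe set, at 7.82, and so for Pdp1 minus Pdp2, at -0.0062. KO 5 was far below the other KO arrays for Pdk3, at 5.80, and above them on the dimmest probe set of Pdk1, at 3.20. WT 2 was the lowest WT array for Pdk2, at 10.81, and so the highest for Pdk3 minus Pdk2, at -4.70. KO 1 was the highest KO array for Pdk2 minus Pdk1, at 1.23.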

How the results depend on the processing

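No member probe set was called under any of the 20 alternatives run for that count, among them the replicate number as a block (0 called; replicate block), another variance model, array weights, a filter on dim probe sets and the muscle covariate. In the main fit 0 of all 34945 probe sets passed, so this count is not particular to the members. Counts over all probe sets in the alternatives are not given here. Dlat, Pdhb, Pdk2 and Pdk3 kept the sign of their difference in all 18 alternatives each, but not its size. Pdk3 was -0.0039 without KO 5, and Dlat and Pdhb were 0.045 and 0.031 without WT 4 and WT 5. Same-numbered KO and WT arrays had correlations of their deviations from -0.33 to 0.171. Such values cannot show whether the numbers pair the samples, which the labels do not say. With the block Pdk2 stayed at -0.20. Signs turned elsewhere, with no call, and the causes were not tested. Without WT 4 and WT 5, Pdk1 was -0.070, Pdp2 0.12, Pdk3 minus Pdk1 0.020 and Pdp1 minus Pdp2 -0.35. With the mean of all probe sets of a gene, Pdk1 was -0.0083 and Pdha1 0.0055. After another quantile normalization Pdhx was 0.012 and Pdk4 minus Pdk1 -0.014, and with the muscle covariate Pdp1 was 0.087. Leaving out each array in turn gave ranges of -0.014 to 0.065 for Pdk1, -0.043 to 0.075 for Pdk4, -0.19 to 0.018 for Pdp1, -0.044 to 0.011 for Pdhx, -0.061 to 0.069 for Pdk4 minus Pdk1, -0.039 to 0.15 for Pdk4 minus Pdk3 and -0.11 to 0.28 for Pdp1 minus Pdp2. The correlation of Pdhb with Dlat kept its sign and a permutation p under 0.05 in all 16 alternatives, which were chosen after seeing the data. None of them put the Dlat set that did not share the pattern, or the second Pdhb set, alone in place of the one used. With the brightest set of the other gene, these had r = 0.47 and 0.67, given without a test.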
